A study of Mus musculus with 8 samples.

Results

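The angiopoietins Angpt1, Angpt2 and Angpt4, the vascular endothelial growth factor Vegfa, and the receptors of both families (Tek, Tie1, Kdr and Flt1) were followed in outer medullary collecting ducts of mice on 2 salt intakes. The 8 genes were chosen by symbol from the 55291 symbols in the deposited tables, and all 8 were found. The group was drawn up around Angpt4 after its lower level under high salt was known, so the diet difference of Angpt4 is given as a description of the values behind that choice. All mice were of the inbred strain C57BL/6J. One group received normal salt (0.3%) and the other high salt (3%), each for 3 days, and no age, sex, other treatment or genetic change is given. Each library was made from 100 to 120 dissected duct segments of 1 mouse after enzyme digestion of the kidney, with 4 libraries per diet.

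Angiopoietins are secreted ligands of the receptor tyrosine kinase TIE2, encoded by Tek, which sits mainly on endothelial cells. ANGPT1 and ANGPT4 activate TIE2, whereas ANGPT2 activates or blocks it depending on the setting, and TIE1 is a related receptor that modulates TIE2. VEGFA acts through VEGFR2 (Kdr), its main signalling receptor, and is bound by VEGFR1 (Flt1), which also occurs as a soluble trap. In the kidney, tubule epithelium and podocytes make VEGFA for the neighbouring capillaries, and angiopoietin signalling through TIE2 is needed for the ascending vasa recta of the medulla.

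Levels are given as CPM, counts scaled to the same total in every library, and as TPM, which also takes transcript length into account and is used wherever genes are compared with each other. Libraries are named by diet and by the number in their column name (normal salt 1, 2, 3 and 6, high salt 2, 3, 4 and 6), because these numbers do not match the sample titles. Recovered totals ranged from 64.8 to 94.1 (in units of 1000000 estimated counts) per library. Defining collecting duct markers were high, Aqp2 having 9979 ± 2120 CPM under normal salt and 15689 ± 1618 CPM under high salt, Aqp3 at 2688 ± 382 and 4328 ± 729 CPM, and Slc4a1 at 2709 ± 525 and 2722 ± 443 CPM (SD, n = 4 each). These 3 do not stand for their lists. Of 10 principal cell markers 5 had higher and 5 had lower means under high salt. Of 8 intercalated cell markers 2 had higher and 6 had lower means. Endothelial, thin limb and thick ascending limb markers were present. Of 8 proximal tubule markers, Slc5a12 was at 0 in all 8 libraries and 2 passed the filter, and their sum was 1.19 to 1.31 TPM under normal salt and 0.677 to 6.32 TPM under high salt, highest in high-salt library 6.

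Promoter sequence is shown for the angiopoietin that fell, for the most abundant ligand and for the angiopoietin receptor, to let the start regions be compared. The RefSeq promoter table (build GRCm38.p6, 250 bases before to 50 bases after the start) held entries for 6 of the 8 genes, and Angpt1 and Angpt2 were not matched. Capitals mark the core promoter motif TATAAA, the core motif GGAAG of ETS factors, the core motif ACGTG of the hypoxia-inducible factors and the steroid receptor motif AGAACA, searched on both strands, so that their reverse complements are also marked. Each sequence runs 5′ to 3′ on the strand of its gene.
Angpt4, chr2:151910957-151911256, plus strand: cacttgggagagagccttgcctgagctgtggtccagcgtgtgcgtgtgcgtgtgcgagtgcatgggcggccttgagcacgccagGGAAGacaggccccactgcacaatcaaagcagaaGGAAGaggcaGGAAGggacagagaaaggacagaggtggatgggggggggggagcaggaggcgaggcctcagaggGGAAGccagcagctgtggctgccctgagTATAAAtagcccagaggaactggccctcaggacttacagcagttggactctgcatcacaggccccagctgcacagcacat
Vegfa, upstream of its 2 listed starts, chr17:46032328-46032627, minus strand: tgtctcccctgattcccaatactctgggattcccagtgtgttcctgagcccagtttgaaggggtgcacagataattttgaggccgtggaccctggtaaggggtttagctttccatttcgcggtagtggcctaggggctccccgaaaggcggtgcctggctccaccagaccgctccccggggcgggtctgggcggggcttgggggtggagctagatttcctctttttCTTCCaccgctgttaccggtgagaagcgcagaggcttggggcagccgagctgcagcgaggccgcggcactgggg
Tek, chr4:94739039-94739338, plus strand: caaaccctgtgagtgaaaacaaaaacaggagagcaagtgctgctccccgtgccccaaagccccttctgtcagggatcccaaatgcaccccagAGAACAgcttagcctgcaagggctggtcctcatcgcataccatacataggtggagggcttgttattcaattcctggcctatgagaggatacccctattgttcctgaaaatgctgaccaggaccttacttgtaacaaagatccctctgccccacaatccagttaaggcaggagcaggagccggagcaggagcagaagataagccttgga
The Angpt4 window held TATAAA, its first base 30 bases before the start, and GGAAG at 4 places. The Vegfa window held GGAAG once, on the reverse strand, and the Tek window held AGAACA once. The window of the other Vegfa start (chr17:46025114-46025413), not shown, lies inside the annotated span of the gene. It held ACGTG once, on the reverse strand with its first base 211 bases before that start, and GGAAG at 2 places. Of the other windows not shown, that of Flt1 held TATAAA, its first base 31 bases before the start, and GGAAG 128, 71 and 52 bases before it. The Tie1 window held GGAAG at 7 places and the Kdr window at 1, counting both strands. Among 32851 promoter windows of 300 bases, 13.6% held TATAAA on either strand, 71.4% GGAAG, 19.0% AGAACA and 19.6% ACGTG. These are letter matches in the reference and not measurements of binding.

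Among the angiopoietins, Angpt4 was far lower and Angpt1 was higher under high salt, while Angpt2 varied as widely within each diet as between them. Angpt4, an activating TIE2 ligand, is annotated at chr2:151911210-151945337 (mm10, plus strand), with 1 annotated transcript of 9 exons and 2335 bases in GENCODE M21. It was measured at 5.55, 3.75, 2.52 and 2.65 CPM in normal-salt libraries 1, 2, 3 and 6, and at 0.365, 0.200, 0.502 and 0.217 CPM in high-salt libraries 2, 3, 4 and 6. Every high-salt library lay below every normal-salt library. These levels rest on 209 to 360 estimated counts per normal-salt library and on 15 to 37 per high-salt library. The exact Poisson 95% interval, which covers counting error only, reached up to 0.691 CPM in high-salt library 4 and began at 2.21 CPM in normal-salt library 3.

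The mean of Angpt4 was 3.62 ± 1.40 CPM under normal salt and 0.321 ± 0.142 CPM under high salt (SD, n = 4 each), 11.3 times lower, and 9.27 to 13.9 times lower as each library was left out in turn. On the log2(CPM + 1) scale, which understates changes of low genes, it fell by 1.77 (SE 0.23, limma adjusted p = 0.026 over 13401 genes). It was the 1 member called at an adjusted p under 0.05, a threshold passed by 0.0821% of all genes tested (0.0298% higher and 0.0522% lower), and this call was the reason for its choice. Angpt4 passed the filter of 1 CPM in 4 libraries only through the 4 normal-salt libraries, since 0 high-salt libraries reached 1 CPM. The call was kept without normal-salt library 1 (adjusted p = 0.0211) but not without any other single library: adjusted p was 0.0506, 0.0766 and 0.0576 without normal-salt libraries 2, 3 and 6, and 0.0708, 0.109, 0.0547 and 0.0653 without high-salt libraries 2, 3, 4 and 6. It was also lost on TPM (adjusted p = 0.0578), where means were 2.41 ± 0.76 and 0.219 ± 0.096, and without a filter (0.228).

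**Figure D1:**
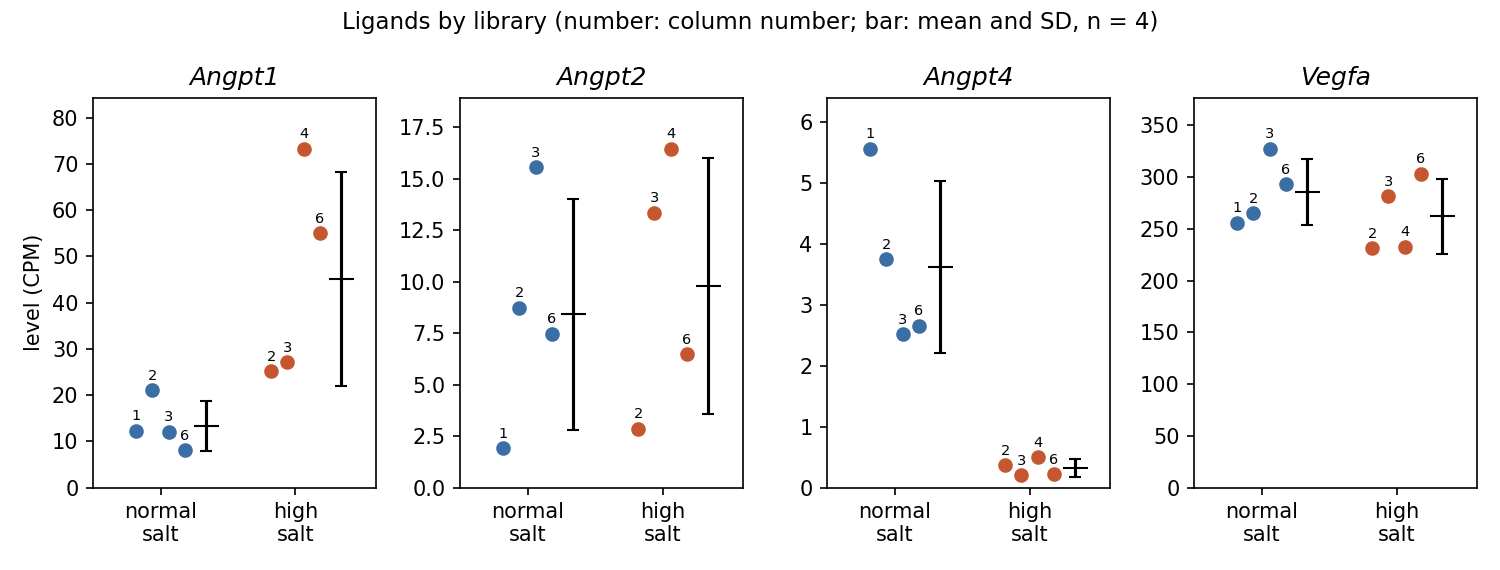
Level of each ligand in CPM (vertical axis, from 0) in the 4 normal-salt and 4 high-salt libraries, with the column number above each point and the mean and SD as a black bar. Angpt4 points under high salt lie between 0.200 and 0.502 CPM, below all normal-salt points, Angpt1 points under high salt lie above all normal-salt points, and the diets overlap for Angpt2 and Vegfa.

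Angpt1, the activating ligand made mainly by mural and mesenchymal cells, is annotated at chr15:42424723-42676977 (minus strand), and its longest coding transcript has 9 exons and 4260 bases. Its levels were 12.3, 21.0, 12.1 and 8.09 CPM in normal-salt libraries 1, 2, 3 and 6 and 25.1, 27.1, 73.2 and 55.1 CPM in high-salt libraries 2, 3, 4 and 6. All 4 high-salt libraries lay above all 4 normal-salt libraries, with the widest gap in high-salt libraries 4 and 6. The means were 13.4 ± 5.44 and 45.1 ± 23.2 CPM, a ratio of 3.38 that ranged from 2.67 to 4.17 as each library was left out. The log2 fold change was 1.61 (SE 0.35, 95% interval 0.83 to 2.39), but limma's adjusted p was 0.123 and the gene was not called. It ranked 93 of 13401 genes by limma's unadjusted p, and it did not pass the threshold in any of the 20 alternatives (adjusted p 0.0785 to 0.449). Apart from Angpt4, which was chosen for its diet difference and is not counted here, Angpt1 was the only member whose diets did not overlap. Of all genes tested 6.4% did not overlap (3.66% higher and 2.75% lower).

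Angpt1 was set beside the markers of pericytes and fibroblasts, which are among the cells known to make it. Of 15 pericyte and fibroblast markers 10 were tested, 0 were called by limma (1 was higher and 0 were lower at an unadjusted p under 0.05), and 8 had higher means. The one higher was Notch3, a mural cell receptor, with 38.2 ± 12.04 and 55.1 ± 10.3 CPM (limma adjusted p = 0.446). Of all genes tested 10.3% had an unadjusted limma p under 0.05. The summed level of the pericyte and fibroblast markers was 34.4 to 131 TPM under normal salt and 35.8 to 73.1 TPM under high salt. Across the 8 libraries, which share tissue and preparation, the correlation of Angpt1 with their mean was 0.05, and without normal-salt library 1, which held the highest sum, it was 0.42. Over all 8 libraries it was 0.29 with the mean of the tested smooth muscle markers and 0.45 with that of the tested podocyte markers. The part of these cells in the Angpt1 difference was not tested. None of the 15 markers was at 0 in all libraries. In pooled ducts, fewer cells of a type and less RNA per cell cannot be told apart.

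Angpt2, the ligand that endothelial cells store and release, is annotated at chr8:18690263-18741562 (minus strand), within the span of Mcph1 on the opposite strand. The counting is not stated to use strand, so reads of the overlap cannot be assigned with certainty, and Mcph1 had 14.7 ± 2.58 and 16.3 ± 2.86 CPM. Angpt2 was at 1.91, 8.74, 15.5 and 7.47 CPM in normal-salt libraries 1, 2, 3 and 6 and at 2.86, 13.3, 16.4 and 6.48 CPM in high-salt libraries 2, 3, 4 and 6. The diets overlapped over nearly their whole range. The means were 8.41 ± 5.60 and 9.78 ± 6.21 CPM (log2 fold change 0.22, SE 0.55, 95% interval -1.01 to 1.44, limma adjusted p = 0.932), and the coefficient of variation within a diet, 66.5% and 63.5%, was the highest among the 8 genes.

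The libraries high in Angpt2 were those high in thin limb markers. The 4 thin limb markers tested of the 5 listed (Aqp1, Slc14a2, Bst1 and Fst) had a mean log2(CPM + 1) of 2.37, 3.81, 5.16 and 3.83 in normal-salt libraries 1, 2, 3 and 6 and of 2.36, 4.26, 5.25 and 3.68 in high-salt libraries 2, 3, 4 and 6. Their correlation with Angpt2 over the 8 libraries was 0.97, noticed after the values were seen and given as a description of libraries that share tissue and preparation. By marker it was 0.87 for Aqp1, the water channel of the descending thin limb that capillaries of the vasa recta also carry, 0.87 for Bst1, 0.67 for the activin antagonist Fst and 0.59 for the urea transporter Slc14a2. The summed level of the list was 23.8 to 153 TPM under normal salt and 42.6 to 181 TPM under high salt, and Sptssb, the marker not tested, had 0.015 ± 0.029 and 0.014 ± 0.027 CPM. With the mean of endothelial markers the correlation of Angpt2 was 0.28. It was 0.66 with the tested smooth muscle markers, 0.57 with podocyte and -0.21 with thick ascending limb markers. With pericyte and fibroblast markers it was -0.55 and with macrophage markers -0.59, and these 2 were -0.17 and -0.04 without normal-salt library 1. The part of thin limb material in the Angpt2 level was not tested.

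**Figure D2:**
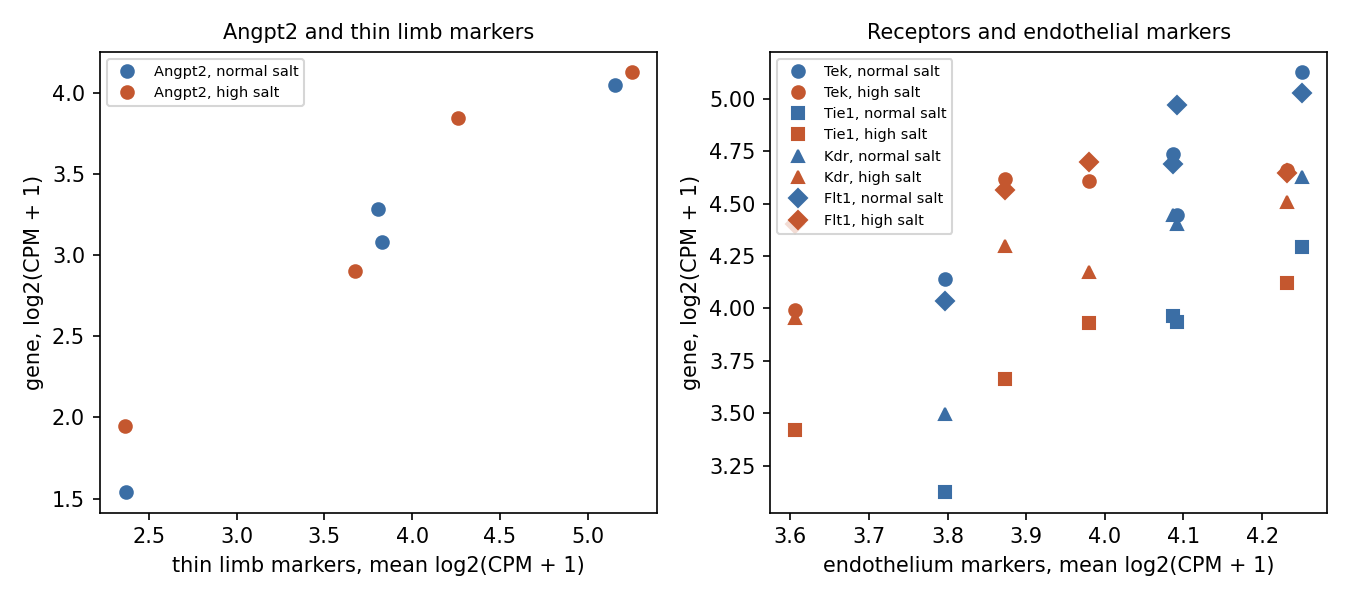
Left, Angpt2 against the mean of 4 thin limb markers, and right, the 4 receptors against the mean of 15 endothelial markers, all as log2(CPM + 1), with 1 point per library and gene, blue for normal salt and orange for high salt. Angpt2 points of both diets lie along 1 line (r = 0.97), and the receptor points rise with the endothelial mean (r = 0.73 to 0.89).

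The makeup of the angiopoietin pool was compared on the TPM scale. Angpt4 made up 40.2%, 16.4%, 10.01% and 20.7% of the summed TPM of the 3 angiopoietins in normal-salt libraries 1, 2, 3 and 6, and 1.98%, 0.745%, 0.847% and 0.539% in high-salt libraries 2, 3, 4 and 6. Angpt1 made up 50.8%, 57.6%, 29.6% and 39.4% under normal salt and 87.2%, 64.8%, 80.0% and 88.3% under high salt. Neither share overlapped between the diets. The share of Angpt2 ran from 9.02% to 60.4% and from 10.8% to 34.5%, and the sum of the 3 genes was 12.8 ± 4.62 and 24.6 ± 11.9 TPM (SD, n = 4 each). These shares are built from the same values as the levels above and add no separate test.

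**Figure D3:**
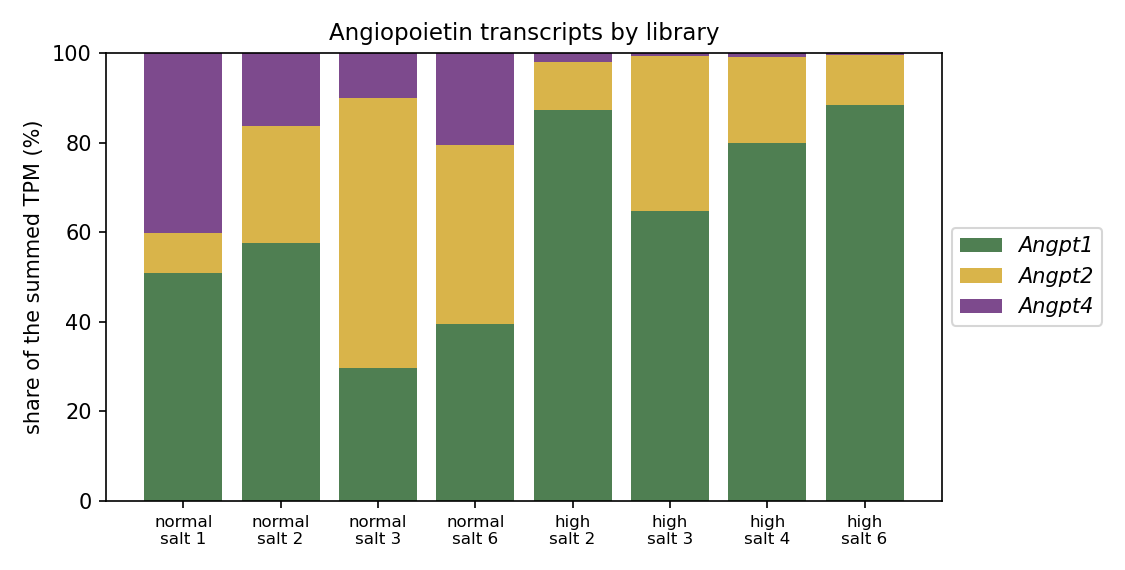
Share of each angiopoietin in the summed TPM of the 3 genes (vertical axis, 0 to 100%) in each of the 8 libraries. The Angpt4 band spans 10.01% to 40.2% in normal-salt libraries and 0.539% to 1.98% in high-salt libraries, where Angpt1 holds 64.8% or more.

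Vegfa was by far the most abundant of the 8 genes and differed little between the diets. It is annotated at chr17:46016993-46032369 (minus strand), with 13 annotated transcripts, 8 of them protein-coding, which the gene-level values do not separate. Its levels were 256, 265, 327 and 293 CPM in normal-salt libraries 1, 2, 3 and 6 and 231, 281, 233 and 303 CPM in high-salt libraries 2, 3, 4 and 6. The lowest values were those of high-salt libraries 2 and 4, but the diets overlapped. Means were 285 ± 32.1 and 262 ± 36.1 CPM, with a log2 fold change of -0.13 (SE 0.12, limma adjusted p = 0.774). The 95% interval of the difference, -0.39 to 0.14, corresponds to 0.764 to 1.10 times the normal-salt level.

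Genes that control Vegfa through the hypoxia-inducible factors were read from the same fit. Of 9 listed, 8 were tested and 0 were called, with a median log2 fold change of 0.02 beside 0.01 over all genes. At an unadjusted p under 0.05 the limma fit gave 1 higher and 0 lower, where 10.3% of all genes reached that level (5.95% higher and 4.37% lower). The higher one was Egln3, a prolyl hydroxylase that is itself induced by these factors, at 14.1, 15.4, 17.4 and 11.2 CPM in normal-salt libraries 1, 2, 3 and 6 and 29.6, 23.7, 43.1 and 26.6 CPM in high-salt libraries 2, 3, 4 and 6 (log2 fold change 1.01, SE 0.19, adjusted p = 0.0815). Its diets did not overlap, as in 6.4% of all genes tested. Hif1a, the oxygen-regulated subunit, had 502 ± 57.6 and 485 ± 45.0 CPM, and Epas1, the subunit HIF-2 alpha, 44.7 ± 2.67 and 40.5 ± 6.87 CPM. The hydroxylases Egln1 and Egln2 had 90.2 ± 7.18 and 87.1 ± 3.75, and 73.9 ± 8.88 and 79.3 ± 12.8 CPM.

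The receptors were all detected at low levels and none was called. Tek, encoding TIE2, is annotated at chr4:94739289-94874976 (plus strand) and was at 16.6, 20.8, 25.7 and 33.9 CPM in normal-salt libraries 1, 2, 3 and 6 and at 23.4, 14.9, 24.3 and 23.5 CPM in high-salt libraries 2, 3, 4 and 6. The high-salt values lay within or just below the normal-salt range. The log2 fold change was -0.14 (SE 0.22, 95% interval -0.62 to 0.34, limma adjusted p = 0.868). Tie1, at chr4:118471191-118490061 (minus strand), was at 7.73, 14.3, 14.6 and 18.6 CPM and at 14.3, 9.71, 16.4 and 11.7 CPM in the same order of libraries. All its high-salt values fell inside the normal-salt range (log2 fold change -0.04, SE 0.24, 95% interval -0.58 to 0.49, limma adjusted p = 0.969).

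Kdr, encoding VEGFR2, is annotated at chr5:75932827-75978458 (minus strand). Its levels were 10.3, 20.2, 20.8 and 23.7 CPM in normal-salt libraries 1, 2, 3 and 6 and 17.1, 14.5, 21.8 and 18.7 CPM in high-salt libraries 2, 3, 4 and 6 (log2 fold change -0.01, SE 0.23, 95% interval -0.51 to 0.50, limma adjusted p = 0.994). Flt1, encoding VEGFR1, is annotated at chr5:147561604-147726011 (minus strand) and was at 15.4, 30.4, 24.8 and 31.7 CPM and at 24.99, 20.2, 24.02 and 22.7 CPM (log2 fold change -0.10, SE 0.20, 95% interval -0.54 to 0.33, limma adjusted p = 0.902). For both genes every high-salt value fell inside the normal-salt range. Normal-salt library 1 was the lowest of its diet in all 4 receptors. Without it the log2 fold changes were -0.30 for Tek, -0.28 for Tie1, -0.26 for Kdr and -0.32 for Flt1 (limma adjusted p 0.274 to 0.544). The upper bounds of the intervals above correspond to 1.26 to 1.41 times the normal-salt level, and the lower bounds to 0.650 to 0.700 times that level.

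**Figure D4:**
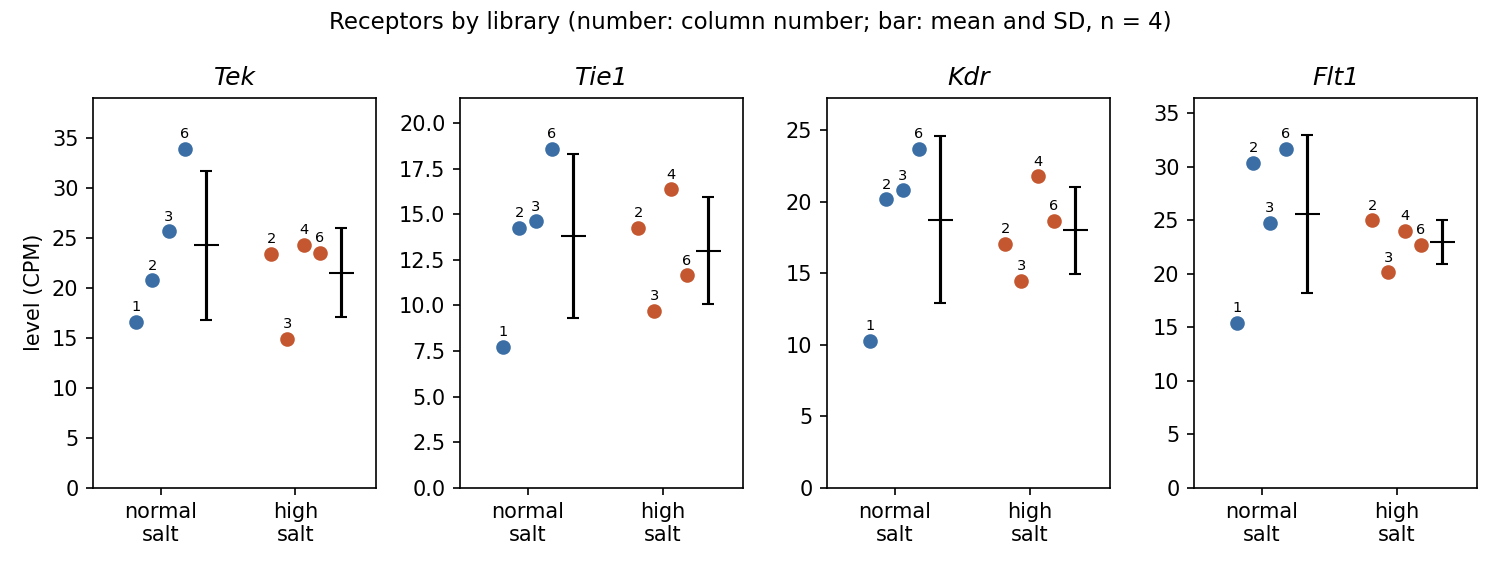
Level of each receptor in CPM (vertical axis, from 0) in the 4 normal-salt and 4 high-salt libraries, with the column number above each point and the mean and SD as a black bar. The diets overlap in all 4 panels, and normal-salt library 1 is the lowest normal-salt point in each.

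The receptors varied together, in the same direction as the endothelial markers and in the opposite direction to the pericyte and fibroblast markers. Over the 8 libraries, which share tissue and preparation, the correlation was 0.95 between Tie1 and Kdr, 0.90 between Kdr and Flt1, and 0.82 between Tek and Kdr. With the mean of 15 endothelial markers it was 0.85 for Tek, 0.89 for Tie1, 0.79 for Kdr and 0.73 for Flt1, against -0.08 for Vegfa and Angpt1 and 0.24 for Angpt4. With the mean of the 10 tested pericyte and fibroblast markers it was -0.76 for Tek, -0.96 for Tie1, -0.94 for Kdr and -0.93 for Flt1. Without normal-salt library 1, a choice made after seeing the data, these were -0.69, -0.91, -0.88 and -0.85, and those with the endothelial mean were 0.83, 0.97, 0.95 and 0.76. Angpt4 then stood at 0.60 with the endothelial mean, Vegfa at -0.16 and Angpt1 at -0.22. The values of Angpt4 include its diet difference, for which it was chosen. With the mean of each diet taken out, over all 8 libraries, Angpt4 correlated with the receptors at -0.54 (Tek), -0.55 (Tie1), -0.68 (Kdr) and -0.62 (Flt1). The summed level of all 18 listed endothelial markers was 172 to 269 TPM under normal salt and 160 to 260 TPM under high salt, none was at 0 in all libraries, and 0 of 15 tested were called by limma (0 at an unadjusted p under 0.05; 4 with higher and 11 with lower means). Plvap, of fenestrated capillaries, had 109 ± 14.7 and 99.1 ± 20.4 CPM, Eng 37.1 ± 3.61 and 33.1 ± 9.26 CPM, Adgrl4 32.1 ± 5.15 and 26.1 ± 7.54 CPM, Emcn 15.8 ± 1.97 and 12.7 ± 3.66 CPM, and Clec14a 5.58 ± 0.82 and 4.27 ± 1.82 CPM. Taken relative to the endothelial mean, on the log2 scale, Tek stood at 0.56 ± 0.26 and 0.55 ± 0.17, Tie1 at -0.23 ± 0.31 and -0.14 ± 0.07, Kdr at 0.19 ± 0.33 and 0.31 ± 0.10, and Flt1 at 0.63 ± 0.28 and 0.66 ± 0.17, with the diets overlapping for all 4. The part of endothelial, pericyte and fibroblast material in the receptor and Angpt4 levels was not tested.

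On the TPM scale Vegfa led and Angpt4 came last under both diets, while Angpt1 stood at place 4 under normal salt and place 2 under high salt. Under normal salt Vegfa stood at 185 ± 29.3 TPM, above the libraries of every other member, followed by Tek (8.75 ± 3.19), Flt1 (6.14 ± 2.15), Angpt1 (5.57 ± 2.54), Tie1 (5.25 ± 1.92), Kdr (5.05 ± 1.84), Angpt2 (4.78 ± 4.10) and Angpt4 (2.41 ± 0.76). Below Vegfa, each gene overlapped the next in that order. Under high salt Vegfa (169 ± 25.7 TPM) was followed by Angpt1 (19.8 ± 10.1) and Tek (8.49 ± 0.61), each without overlap with the next. Flt1 (5.54 ± 0.52), Kdr (4.86 ± 0.79), Tie1 (4.81 ± 1.08) and Angpt2 (4.60 ± 2.90) overlapped in that order, and Angpt4 (0.219 ± 0.096) lay below them all.

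**Figure D5:**
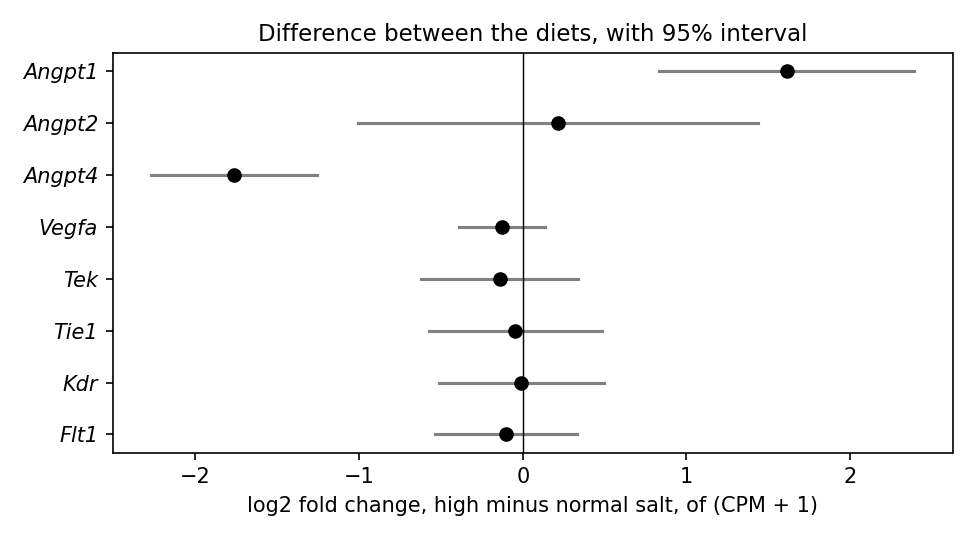
Log2 fold change of high against normal salt on the log2(CPM + 1) scale (horizontal axis) for the 8 genes, with the 95% interval of the limma fit as a line. The intervals of Angpt4 (-2.27 to -1.26) and Angpt1 (0.83 to 2.39) leave out 0, and the other 6 include it.

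The remaining VEGF ligands, receptors and co-receptors were read from a list of 9 symbols, of which 8 were in the tables and 5 were tested. By limma 0 were called, and the median log2 fold change was 0.09. At an unadjusted limma p under 0.05, 1 was higher and 0 were lower, beside 5.95% and 4.37% of all genes tested. That gene was Nrp1, the neuropilin that holds VEGFA on VEGFR2, at 18.4, 36.2, 25.3 and 28.7 CPM in normal-salt libraries 1, 2, 3 and 6 and 50.1, 44.4, 43.3 and 36.5 CPM in high-salt libraries 2, 3, 4 and 6. On CPM the diets did not overlap, as in 6.4% of all genes tested (log2 fold change 0.69, SE 0.18, limma adjusted p = 0.180). On TPM they overlapped narrowly, with 16.73 in normal-salt library 2 and 16.71 in high-salt library 6. Vegfb, a VEGFR1 ligand, had 112 ± 29.8 and 107 ± 13.4 CPM, and Plxnd1, a semaphorin receptor, 19.0 ± 3.77 and 22.5 ± 2.74 CPM. Vegfc, Vegfd and Pgf were below the level tested. Of 7 angiopoietin-like genes, which do not bind TIE2, 3 were tested and 0 were called (0 at an unadjusted p under 0.05): Angptl2 had 1.14 ± 0.92 and 1.22 ± 0.32 CPM, Angptl4 1.17 ± 0.94 and 0.909 ± 0.450 CPM, and Angptl6 2.91 ± 0.48 and 2.29 ± 0.49 CPM.

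Downstream of TIE2, 16 of 18 listed partners were tested and 0 were called by limma, with a median log2 fold change of -0.01. At an unadjusted limma p under 0.05, 2 were higher and 2 were lower, beside 5.95% and 4.37% of all genes tested. Pik3r1, the regulatory subunit of phosphoinositide 3-kinase, had 99.8 ± 3.03 and 130 ± 13.4 CPM (a log2 difference of 0.37, SE 0.09, limma adjusted p = 0.163), and the adaptor Grb7 had 119 ± 4.75 and 98.0 ± 5.38 CPM (-0.28, SE 0.08, adjusted p = 0.212). Both were among the 2 higher and 2 lower genes of the list whose diets did not overlap on CPM, beside 3.66% and 2.75% of all genes tested. The other genes at an unadjusted limma p under 0.05 were Itgb1, higher, and the adaptor Grb14, lower (103 ± 16.9 and 82.5 ± 6.85 CPM, limma adjusted p = 0.403). The most abundant partners were the integrin subunits Itgb1 (356 ± 26.7 and 406 ± 14.0 CPM) and Itgav (238 ± 59.1 and 230 ± 22.5 CPM) and the kinase Akt1 (156 ± 8.16 and 161 ± 12.3 CPM), all of which epithelial cells also express. Ptprb, the endothelial phosphatase that restrains TIE2, followed the receptors with 15.6 CPM in normal-salt library 1 and 23.5 to 38.5 CPM in the other 7 libraries.

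Of 15 genes of VEGF receptor signalling 14 were tested and 0 were called, with 0 at an unadjusted p under 0.05 by limma and a median log2 fold change of 0.04. Mapkapk2 and Mapk3, kinases used by most cell types, were among the most abundant (178 ± 7.09 and 165 ± 14.2 CPM, and 129 ± 7.42 and 131 ± 6.06 CPM). The smallest p belonged to the adaptors Nck2 (39.6 ± 6.30 and 46.1 ± 3.50 CPM, adjusted p = 0.573 by limma) and Shb (106 ± 10.5 and 119 ± 10.8 CPM, adjusted p = 0.624). Of 12 transcription factors known from endothelium 11 were tested and 0 were called (0 at an unadjusted p under 0.05). Gata2 was the most abundant at 504 ± 81.0 and 453 ± 18.9 CPM and is also a factor of collecting duct cells. Elk3 and Ets1 had 19.2 ± 1.04 and 17.98 ± 1.31, and 16.9 ± 2.80 and 17.8 ± 0.78 CPM. Erg and Fli1 had 5.36 ± 1.18 and 6.40 ± 1.11, and 1.6 ± 0.54 and 1.11 ± 0.50 CPM.

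Markers of the other cell types that dissected ducts could carry gave 0 calls by limma in each of the lists for smooth muscle (2 of 5 tested), lymphatic endothelium (3 of 5), podocytes (4 of 8), macrophages (7 of 10), thick ascending limb (9 of 9), thin limb (4 of 5), proximal tubule (2 of 8) and intercalated cells (8 of 8). In the principal cell list, 1 of 10 was called, Scnn1a, lower. At an unadjusted p under 0.05 there were 1 macrophage marker (Ptprc, higher, while the other 6 tested had lower means and the list's median log2 fold change was -0.39), 3 intercalated cell markers (lower) and 5 principal cell markers (3 higher and 2 lower). Of all genes tested 10.3% reached that unadjusted limma p (5.95% higher and 4.37% lower). Summed macrophage markers ran from 14.1 to 57.5 TPM under normal salt and from 12.6 to 26.2 TPM under high salt. Thick ascending limb markers had lower means in all 9 and sums of 414 to 1103 and 126 to 1580 TPM, and their correlation with Angpt4 over the 8 libraries was 0.47, beside 0.48 for the macrophage markers and -0.05 for the pericyte and fibroblast markers. Without normal-salt library 1 these were 0.33, -0.07 and -0.80. All of these correlations include the diet difference of Angpt4. The part of these cell types in the Angpt4 values was not tested.

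The genes most like Angpt4 in level over the 8 libraries (Pearson correlation of log2(CPM + 1)) were Smim6 (0.98), Tmem117 (0.98), Fam114a2 (0.97), the antimicrobial peptide gene Defb1 (0.97) and the helix-loop-helix inhibitor Id2 (0.96). All 5 were lower under high salt, so the diet difference is part of this likeness. With the mean of each diet taken out, the 5 nearest were Tceal8, Ube2n-ps1, Gmppa, AC115752.1 and Dynll1 (0.97 to 0.99). Nearest to Vegfa were Cdk6 (0.98), Siah1a (0.97), Fam131a (0.95), Crkl (0.94) and Tmx4 (0.94), of which Cdk6, Siah1a and Crkl were also among its 5 nearest with the diet means taken out, joined by Lynx1 and Map3k11. Nearest to Kdr were Dyrk2, Csnk1a1, Mysm1, Cep164 and Ralgapa2 (0.95 to 0.97), and Edem1, Dyrk2, Arl10, Elf1 and Med12 with the diet means taken out (0.98 to 0.99). With 8 libraries and 13401 genes, correlations of this size are a ranking only.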

How the data were processed

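RNA of outer medullary collecting ducts was measured in 8 libraries, 4 per diet. The authors deposited log2 CPM values (unit from the values: a shared floor of -5.29, above which linear values sum to the same total in every library) and TPM values, per the file headers and values, each for 55291 genes. The submitters' processing notes name Trimmomatic, FastQC and mm10. Aligner, counter and strand setting were not given in the labels or file headers, and per the labels' protocols the kit was stranded. The planned test assumed linear CPM, so deposited values were taken to the power of 2, less the floor, and rescaled to the CPM total. The CPM steps gave estimated counts (multiples of 0.01, 84.2% to 85.4% whole within 0.005). They were used for depth, voom, the counting intervals of Angpt4 and the implied transcript lengths.

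Genes with at least 1 CPM in at least 4 libraries (13401, all 8 members) were fitted by limma (version 3.58.1, R 4.3.3) on the log2(CPM + 1) scale (lmFit, eBayes with trend, two-sided, Benjamini-Hochberg over all genes), with an adjusted p under 0.05 as the call. The fit was tested on simulated data. No member missed the filter, so the permutation test planned for such members was not needed. Errors are SDs, and each library is from 1 mouse; since the labels do not say that the mice differ, p-values measure the spread between these libraries. The members and lists were chosen with earlier results of these data known. Named genes are the members and, for the pathway and marker lists, called genes, the 3 most abundant and the 2 with the smallest p, given for lists that bear on the members; the 5 genes most like Angpt4, Vegfa and Kdr were added, and Ptprb, Grb14 and genes under the filter were named after their values were seen. Some genes that this rule names are not reported here. Positions come from GENCODE M21 (mm10), matched by symbol. Alternatives covered pseudocount, filter, scaling, TPM, robust moderation, weights, voom, a block, an endothelial covariate and each library left out.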

Additional observations from a re-analysis of the deposited data

Results flagged for a closer look

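Tek in high-salt library 3 stood apart from the other high-salt libraries, with a log2(CPM + 1) of 3.99 and a gap to the next library that was 0.922 of the whole range of its diet. In the same library its TPM of 7.61 was close to the 8.61, 8.95 and 8.80 TPM of high-salt libraries 2, 4 and 6. The transcript length implied by the ratio of estimated counts to TPM was 3222 bases there and 4333 to 4578 bases in the other 7 libraries, beside annotated coding transcripts of 4176 to 4654 bases. Without high-salt library 3 the log2 fold change of Tek was 0.02 in place of -0.14.

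The mean of the pericyte and fibroblast markers in normal-salt library 1 was 4.14 on the log2(CPM + 1) scale, with a gap of 0.837 of the range of its diet. That library was also the lowest of its diet in Tek, Tie1, Kdr and Flt1. In all, 50 groups of 4 libraries were searched and chance flags about 1 in 20 of them.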

How the results depend on the processing

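Over 20 alternatives the log2 fold change of Angpt4 stayed negative, from -3.44 (voom) to -1.46, and Angpt4 kept its call in 11. Angpt4 was chosen for this difference, and every high-salt library lay below every normal-salt library. That its direction was kept is therefore no separate support. Angpt4 lost the call without a filter (-1.77, limma adjusted p = 0.228), on TPM (-1.46, adjusted p = 0.0578) and in 7 of the 8 fits that left out a library. Those 8 fits ranged from -1.88 to -1.58 (adjusted p 0.0211 to 0.109). Angpt1 (1.32 to 1.84) and Vegfa (-0.22 to -0.06) kept their direction throughout and stayed uncalled. The limma fit described above, before any alternative, called 4 genes higher and 7 lower. Without a filter limma called 0 and 0 of 30343 genes (1079 higher and 854 lower at an unadjusted p under 0.05), and on TPM 0 higher and 5 lower (761 and 468). Robust moderation called 11 and 11, array quality weights 88 and 41, and the endothelial covariate 17 and 10. Leaving out each library gave 0 to 36 higher and 0 to 14 lower: 36 and 14 without normal-salt library 1, and 0 and 0 without normal-salt library 3 (where unadjusted p was under 0.05 in 711 and 520) or high-salt library 4 (542 and 382). The cause of these shifts was not tested.

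The near-zero differences changed sign. With array quality weights Angpt2 was -0.26. On TPM Tek was 0.0187 and Kdr 0.00641. With the endothelial covariate Tek was 0.0453, Tie1 0.178, Kdr 0.185 and Flt1 0.0398. Fits that left out 1 library ranged from -0.27 to 0.63 for Angpt2, from -0.30 to 0.0295 for Tek, from -0.28 to 0.110 for Tie1, from -0.26 to 0.119 for Kdr and from -0.32 to 0.0133 for Flt1. In all of these fits the 6 members other than Angpt4 and Angpt1 were uncalled.

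The numbers 2, 3 and 6 occur in both diets. Same-numbered libraries deviated from their diet means with correlations of 0.208 (number 2), 0.287 (number 3) and 0.00201 (number 6). The highest correlation between differently numbered libraries was 0.296, and 3 of the 6 correlated best with their own number. The labels do not state pairs, so the fit described above used none, and this check does not settle whether the numbers mark pairs. With the number as a replicate block, limma called 22 genes higher and 16 lower, Angpt4 had -1.65 (adjusted p = 0.0383) and Angpt2 turned to -0.574 (adjusted p = 0.371). Under this block the receptors were lower than without it and uncalled, at -0.36 for Tek, -0.39 for Tie1, -0.35 for Kdr and -0.34 for Flt1 (adjusted p 0.246 to 0.427). Their unadjusted limma p under the block was 0.0721, 0.0432, 0.0213 and 0.0149 in the same order, and 0.0479 for Angpt2. Of 13401 genes, 1009 were higher and 765 lower at an unadjusted p under 0.05 with the block. With 15 to 37 counts per high-salt library, depth limits the precision of the Angpt4 level under high salt.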

Other observations

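The transcript length implied by the ratio of estimated counts to TPM, calibrated in each library on 921 to 1003 genes with 1 annotated transcript, described the isoform mix that the authors' TPM assumed. It came within 5% of the annotated length for 59.4% to 85.1% of those genes, which sets its precision. For Angpt4 it was 2407 to 2467 bases in all 8 libraries, beside 2335 annotated, and its mean fell by a like factor on both scales (11.03 times lower on TPM and 11.3 times on CPM). For Angpt2 it was 3463 to 3585 bases in 7 libraries and 2484 bases in normal-salt library 3, where the TPM of 10.5 was the highest of all. For Flt1 it was 6571 to 6728 bases, between the 2 annotated coding transcripts of 6292 bases (13 exons) and 6895 bases (30 exons), and it did not separate the diets (6623 ± 72.1 and 6631 ± 54.0 bases, SD, n = 4 each). For Vegfa it was 2544 ± 41.8 and 2596 ± 42.2 bases.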
